A study of Drosophila melanogaster with 13 samples.

Results

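The genes described here are 34 Drosophila melanogaster genes that encode proteins of the muscle sarcomere and of its calcium and energy supply. They were listed by FlyBase symbol and not by a threshold on any value, but were chosen with earlier results of these data known. Shares of these genes set beside all genes are therefore descriptions. Of the 34, 31 were found among the 15682 genes of the head count files. The genes wupA, Strn-Mlck and Zasp52 were not analysed here. The 31 genes took between 1.12% and 3.03% of all gene counts in a library.

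The study sequenced mRNA of whole adult heads to ask which genes change when either of a pair of histone methyltransferases, trr or G9a, is disturbed. The 2 libraries labelled trr knockdown came from flies of genotype Elav-Gal4/+, dicer2/+ with the P{TRiP.HMS01019} hairpin at attP2/+, and the 2 trr control libraries from flies with the same driver and dicer2 over an empty attP2 site. The 3 libraries labelled G9a mutant came from flies carrying the G9aDD1 allele, and the 3 G9a control libraries from G9a+/+ flies of the matching precise excision line. All flies were adults no older than 5 days (the labels start the range at day 0 and the study's methods at day 1). The study describes the libraries of a group as biological replicates, each from a pool of frozen heads. The sex of the flies was not stated. The elav driver acts in neurons, so the hairpin against trr was not directed to muscle, and G9aDD1 is 1 allele present in every cell. The p-values given measure the spread between these libraries.

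A sarcomere is built of myosin thick filaments and actin thin filaments. The thin filaments are anchored at the Z-disc, and troponin and tropomyosin on them block myosin until calcium binds troponin C. Calcium leaves the sarcoplasmic reticulum through the ryanodine receptor and is pumped back by SERCA, and giant elastic proteins tie thick filaments to the Z-disc. Flies express different actin and troponin C genes in different fibres. The fibrillar indirect flight muscles of the thorax use Act88F, flightin (fln) and TpnC4, the tubular jump and leg muscles use Act79B, and the muscles of the head, which move the proboscis and antennae, are tubular.

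Gene counts per library ran between 18114408 and 28171883. Photoreceptor markers (7 of 7 found, ninaE among them) summed to between 54006 and 88779 CPM (a gene's counts scaled to 1e+06 gene counts in the library) in every library, as a head sample should hold. Counts of the targeted genes were not lower in the groups labelled as knockdown and mutant. The trr gene had 94.1 and 85.9 CPM in libraries labelled trr knockdown, against 73.5 and 92.6 CPM in trr controls, and G9a had 62.3 to 74.8 CPM in libraries labelled G9a mutant, against 50.0 to 60.0 CPM in G9a controls. The G9a groups did not overlap and the trr groups did. Counts over a whole gene do not show which part of it a mutant allele lacks. By RT-qPCR on a new biological replicate, the study reported reduced trr mRNA in whole heads, which include cells not targeted. Those measurements were not among the data used here, so directions given below rest on the labels. G9a control 3 held 64.3 CPM of 6 midgut protease genes, where the other 9 libraries held at most 2.62 CPM. G9a mutant 3 held 98.6 CPM of 7 testis and male accessory gland genes and G9a control 3 held 16.0 CPM, where the others held at most 5.06 CPM.

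Among the muscle genes of the head, 1 was called higher and 1 lower in libraries labelled trr knockdown, and most of the others lay slightly above trr controls without a call. Summed over the 31 genes, the level was 13314 and 13766 CPM in libraries labelled trr knockdown, against 11214 and 11577 CPM in trr controls, so that the groups did not overlap. Of the 30 genes that passed the filter of 10 summed counts, 1 rose (Act79B) and 1 fell (TpnC25D) by edgeR's quasi-likelihood test with Benjamini-Hochberg adjustment over all 11416 genes tested, at an adjusted p under 0.05 and a fold change over 1.5. Over all genes tested this rule called 1.03%, with 0.710% higher and 0.324% lower. The log2 fold change was above 0 for 24 of the 30 genes, against 50.1% of all genes tested, and its median was 0.20, against 0.00078 over all genes tested. In 19 of the 30 both libraries labelled trr knockdown lay above both controls and in 3 below them, where 29.7% and 27.4% of all genes tested did so. At an unadjusted p under 0.05, 12 of the 30 were higher and 1 was lower, against 8.27% and 11.0% of all genes tested. In bulk heads, fewer cells of a type and less RNA per cell cannot be told apart.

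**Figure D1:**
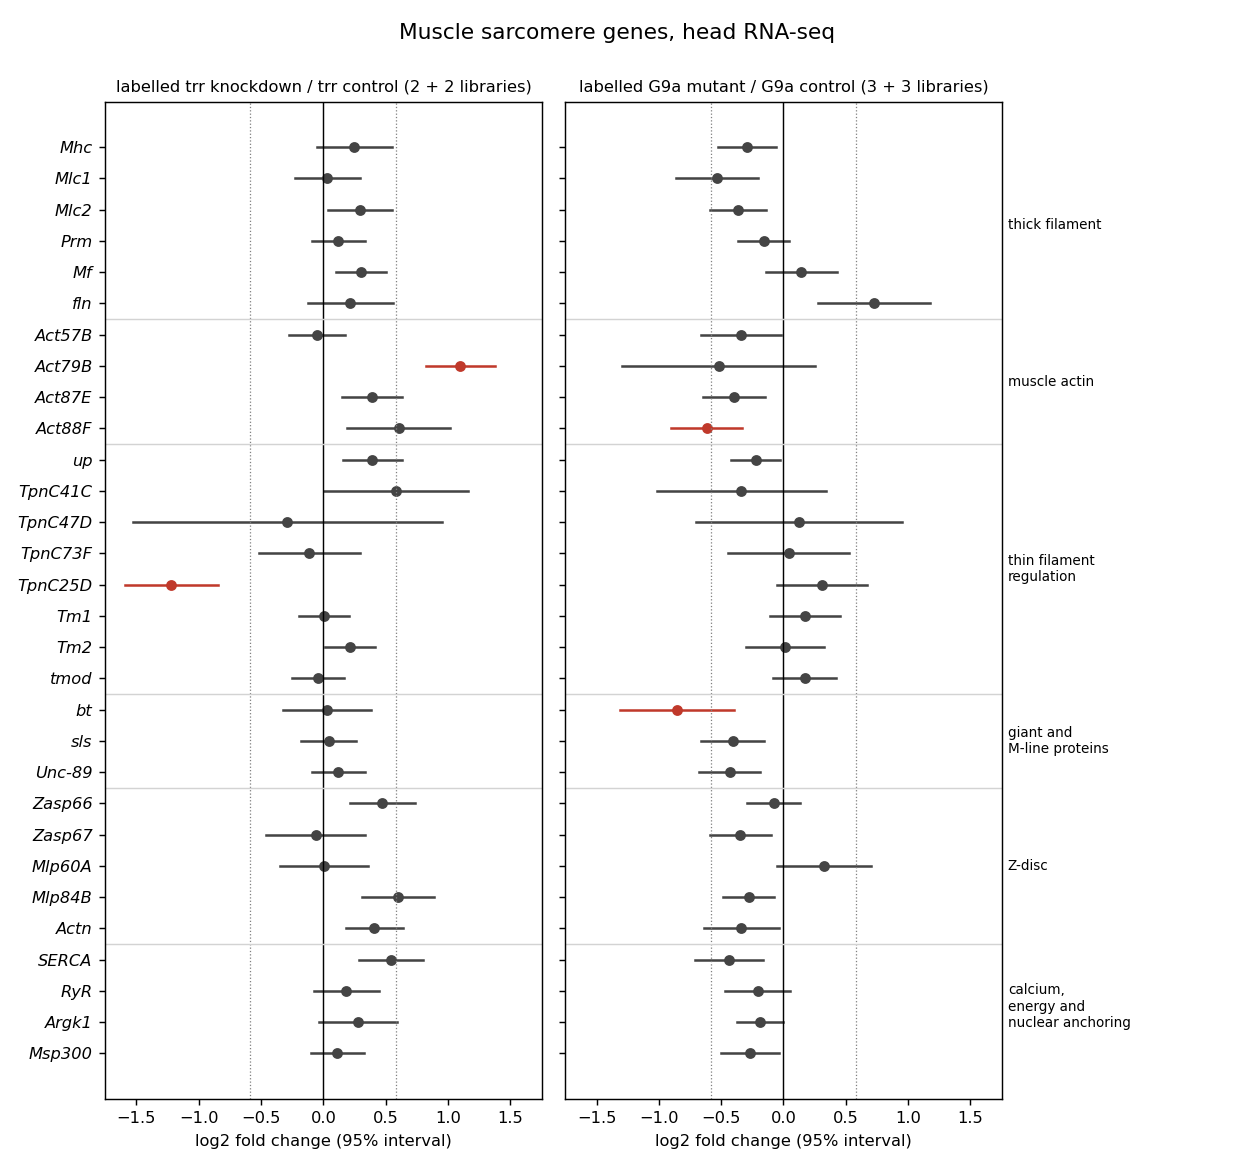
Log2 fold change of each of the 30 muscle genes that passed the filter, with its 95% interval, for libraries labelled trr knockdown over trr control (left, 2 + 2 libraries) and labelled G9a mutant over G9a control (right, 3 + 3 libraries). Genes are grouped by role, dotted lines mark a 1.5-fold change, and red marks the called genes, which are Act79B and TpnC25D on the left and Act88F and bt on the right.

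None of the 6 thick filament genes was called in the trr comparison, although all 6 had log2 fold changes above 0, between 0.032 and 0.30. At an unadjusted p under 0.05, 2 were higher, as were 8.27% of all genes tested. Mhc, the only muscle myosin heavy chain gene of the fly, had 1742 and 1675 CPM in libraries labelled trr knockdown, against 1322 and 1555 CPM in trr controls (log2 fold change 0.25, SE 0.12, adjusted p = 0.315). The regulatory light chain Mlc2 had a log2 fold change of 0.30, paramyosin (Prm) of 0.12 and flightin, which stiffens the thick filaments of flight muscle, of 0.22. The member with the highest value was myofilin (Mf), a thick filament protein, at 549 and 544 CPM against 451 and 439 CPM (log2 fold change 0.30, SE 0.082, adjusted p = 0.144). The lowest was the essential light chain Mlc1, at 267 and 255 CPM in libraries labelled trr knockdown, against 283 and 230.4 CPM in trr controls, which overlap (log2 fold change 0.032, SE 0.11, adjusted p = 0.885).

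Among the 4 muscle actins Act79B stood out. It had 329 and 278 CPM in libraries labelled trr knockdown, against 150.2 and 134 CPM in trr controls, so both libraries of the first group lay well above both of the second. Its mean was 303 ± 36.2 CPM in libraries labelled trr knockdown and 142 ± 11.2 CPM in trr controls (SD, n = 2 each), a 2.14-fold rise (log2 fold change 1.10, SE 0.11, adjusted p = 0.0241). Act88F, the flight muscle actin, had 21.2 and 17.7 CPM in libraries labelled trr knockdown, against 11.8 and 13.8 CPM in trr controls. These groups did not overlap, but the gene was not called (log2 fold change 0.60, SE 0.17, adjusted p = 0.151). Act87E, expressed in body wall muscle, had a log2 fold change of 0.39 (adjusted p = 0.125). Act57B, its close partner in that tissue, had 687 and 652 CPM in libraries labelled trr knockdown, against 686 and 704 CPM in trr controls, with a log2 fold change of -0.051 (SE 0.090, adjusted p = 0.776).

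The shares of the 4 genes in the muscle actin counts differed too, as a description with no test. Act79B made up 26.0% and 24.1% of the counts of the 4 actins in libraries labelled trr knockdown, against 14.9% and 13.2% in trr controls. Act57B made up 54.5% and 56.6%, against 68.1% and 69.1%. Per 100 counts of Mhc, Act79B had 16.6 to 18.9 counts in libraries labelled trr knockdown, against 8.63 to 11.4 in trr controls, so its level was also higher relative to the myosin heavy chain. The coding sequences of these actins are nearly identical, and the study kept only reads of 36 bases that align to 1 place, so the split of reads among the actins is uncertain.

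The called fall was in the troponin C family. TpnC25D, one of its calcium-binding subunits, had 40.0 and 53.5 CPM in libraries labelled trr knockdown, against 106 and 112 CPM in trr controls. The groups were far apart, at 46.8 ± 9.56 CPM in libraries labelled trr knockdown and 109 ± 4.37 CPM in trr controls (SD, n = 2 each), and the fold was 0.429 (log2 fold change -1.22, SE 0.15, adjusted p = 0.0365). TpnC41C, a troponin C of adult muscle, went the other way without being called, at 27.9 and 22.2 CPM against 20.9 and 12.9 CPM (log2 fold change 0.58, SE 0.23, adjusted p = 0.255). TpnC25D therefore held 53.5% and 64.8% of all troponin C counts in libraries labelled trr knockdown, against 78.5% and 84.9% in trr controls, and TpnC41C held 37.3% and 26.9%, against 15.5% and 9.77%. TpnC73F had log2 fold change -0.11 and TpnC47D had -0.29 at 6 to 8 counts in each of the 4 libraries. In the RefSeq table of Release 6, TpnC25D overlaps tkv, a receptor gene, and the sources used here do not state whether counting used strand. There, 15 of the 31 genes overlap another gene, Act87E, sls, Zasp66, Mlp84B, Actn and SERCA among them, and their counts carry the same uncertainty.

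TpnC4, the troponin C of flight muscle needed for stretch activation, was almost absent. It had 1 and 0 counts in libraries labelled trr knockdown, against 4 and 4 counts in trr controls, and did not pass the filter. The 3 libraries labelled G9a mutant had 0 counts each, against 1, 0 and 0 counts in G9a controls, and a count of 0 allows up to 3 counts. The other defining genes of flight muscle, Act88F and fln, had 315 to 924 and 100 to 556 counts per library. Act88F made up 1.17% to 1.68% of the muscle actin counts. Whether some of its reads came from the other actins was not tested.

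Of the other thin filament genes none was called in the trr comparison. Troponin T (up) had 957 and 905 CPM in libraries labelled trr knockdown, against 689 and 732 CPM in trr controls, which did not overlap (log2 fold change 0.39, SE 0.10, adjusted p = 0.123). The tropomyosin genes Tm1 and Tm2 had log2 fold changes of 0.0039 and 0.21, and tropomodulin (tmod), which caps the slow-growing end of the thin filament, had -0.043.

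Giant and M-line proteins were close to their controls in the trr comparison, with log2 fold changes between 0.028 and 0.12 and none of 3 called. Projectin (bt), a titin-like connecting protein, had 69.7 and 70.9 CPM in libraries labelled trr knockdown, inside the span of the trr controls at 80.4 and 58.4 CPM (log2 fold change 0.028, SE 0.14, adjusted p = 0.927). Unc-89, the obscurin of the M-line, had 221 and 222 CPM against 199 and 209 CPM (log2 fold change 0.12, SE 0.088, adjusted p = 0.467).

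In the Z-disc group 3 of 5 genes had log2 fold changes of 0.41 or more, with an unadjusted p under 0.05, and none passed the adjusted threshold. At that unadjusted p 8.27% of all genes tested were higher. Mlp84B, a muscle LIM protein, had 455 and 440.0 CPM in libraries labelled trr knockdown, against 272 and 319 CPM in trr controls, with no overlap (log2 fold change 0.60, SE 0.12, adjusted p = 0.0891). Zasp66, a PDZ protein that binds alpha-actinin, had log2 fold change 0.47 (adjusted p = 0.106) and Actn, alpha-actinin itself, 0.41 (adjusted p = 0.108). Mlp60A, the other muscle LIM protein, had 1025 and 1120 CPM inside the control span of 1243 and 907 CPM, with log2 fold change 0.0048. The lowest value was that of Zasp67, at 6.99 and 7.58 CPM against 7.49 and 7.76 CPM (log2 fold change -0.063, SE 0.16, adjusted p = 0.850).

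All 4 calcium, energy and nuclear anchoring genes had log2 fold changes above 0 and none was called. At an unadjusted p under 0.05, 1 was higher, as were 8.27% of all genes tested. SERCA had 1519 and 1400.3 CPM in libraries labelled trr knockdown, against 966 and 1040 CPM in trr controls, and the groups did not overlap (log2 fold change 0.54, SE 0.10, adjusted p = 0.0872). RyR, the calcium release channel, had log2 fold change 0.18 and Argk1, the arginine kinase that buffers ATP, 0.28. The lowest was Msp300, a nesprin that anchors muscle nuclei, at 379 and 382 CPM against 347 and 359 CPM (log2 fold change 0.11, SE 0.087, adjusted p = 0.499).

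**Figure D2:**
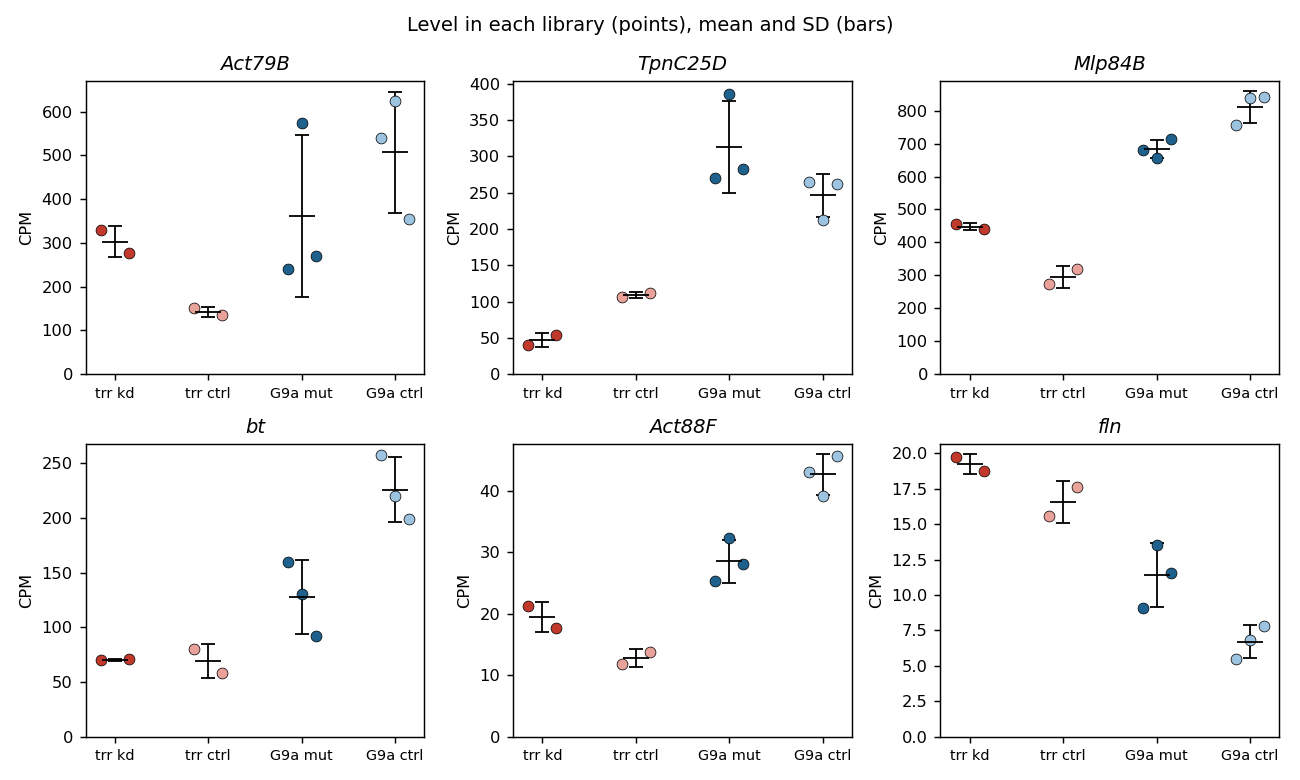
CPM of 6 muscle genes in each of the 10 libraries (points), with the mean and SD of each group (bars); axes start at 0. Both libraries labelled trr knockdown lie above both trr controls for Act79B and Mlp84B and below them for TpnC25D, and the 3 libraries labelled G9a mutant lie below the 3 G9a controls for bt, Act88F and Mlp84B and above them for fln.

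The 2 calls of the trr comparison depended on the libraries in the fit. Without trr knockdown 1 or trr knockdown 2 no muscle gene was called, and the edgeR adjusted p was 0.916 and 0.220 for both Act79B and TpnC25D, with 0 and 1 of all genes called, against 118 with all 4 libraries, while their log2 fold changes kept their sign (0.97 to 1.22 and -1.44 to -1.03). Without trr control 2, Act88F, Mlp84B and SERCA were called as well, and without trr control 1, TpnC41C was. Over all genes these fits called 2009 and 756 genes, so a call in them stands against a larger background. The lone library of a group is then assumed to vary like the other group. The 2 groups did not vary alike. Between replicates, the chi-square per degree of freedom was 3.64 for libraries labelled trr knockdown and 51.0 for trr controls.

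In the G9a comparison the muscle genes lay mostly on the low side. The sum over the 31 genes was 24527, 27086 and 25565 CPM in libraries labelled G9a mutant, against 29880, 30289 and 29494 CPM in G9a controls, with no overlap. Of 30 genes tested, 0 rose and 2 fell, Act88F and bt, by edgeR's quasi-likelihood test with Benjamini-Hochberg adjustment over 12329 genes, where the same rule called 7.56% of all genes tested, 1.99% as higher and 5.57% as lower. At an unadjusted p under 0.05, 1 of the 30 genes was higher (fln) and 16 were lower, against 11.6% and 13.9% of all genes tested, and DESeq2 called fln higher. The log2 fold change was below 0 for 21 of the 30 genes, against 45.7% of all genes tested, and its median was -0.27, against 0.041 over all genes tested. In 14 genes the 3 libraries labelled G9a mutant lay below all 3 controls and in 2 (fln and TpnC25D) above them, where 15.1% and 17.0% of all genes tested did so. By adjusted p alone, which 7.49% of all genes met on the lower side, sls and Unc-89 joined the lower genes.

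The lowest log2 fold change of the G9a comparison was that of projectin. Its gene, bt, had 160.0, 131 and 92.1 CPM in libraries labelled G9a mutant, against 257, 219.9 and 199 CPM in G9a controls, and the groups did not overlap. Its mean was 128 ± 34.1 CPM in libraries labelled G9a mutant and 225 ± 29.6 CPM in G9a controls (SD, n = 3 each), a fold of 0.553 (log2 fold change -0.85, SE 0.20, adjusted p = 0.0306). Unc-89 had 562, 667 and 593 CPM, against 871, 803 and 729 CPM (log2 fold change -0.43, SE 0.11, adjusted p = 0.0361). The titin-like gene sls, whose products include kettin at the Z-disc, had 694, 774 and 634 CPM, against 987, 889 and 849 CPM (log2 fold change -0.41, SE 0.11, adjusted p = 0.0494). In both genes the groups did not overlap, and both stayed under a 1.5-fold change.

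All 4 muscle actins had log2 fold changes below 0 between -0.62 and -0.34 in the G9a comparison, and 1 was called. The uncertain split of reads among the actins applies to these values and to the actins in the difference test below. Act88F had 25.2, 32.2 and 28.0 CPM in libraries labelled G9a mutant, against 43.0, 39.2 and 45.7 CPM in G9a controls. No library of one group reached the other, and Act88F averaged 28.5 ± 3.52 CPM in libraries labelled G9a mutant and 42.6 ± 3.27 CPM in G9a controls (SD, n = 3 each), a fold of 0.653 (log2 fold change -0.62, SE 0.12, adjusted p = 0.0170). Act79B was spread widely, at 239, 575 and 271 CPM in libraries labelled G9a mutant, against 539.6, 625 and 356 CPM in G9a controls. Its groups overlapped (log2 fold change -0.52, SE 0.34, adjusted p = 0.374), and its share of the muscle actin counts was 11.5% to 24.2%, against 12.2% to 23.1%. Act57B, the least negative, had 1399, 1446 and 1767 CPM, against 1877, 1649 and 2173 CPM (log2 fold change -0.34, SE 0.14, adjusted p = 0.170).

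Flightin went against the other thick filament genes except Mf (log2 fold change 0.14). It had 9.06, 13.6 and 11.6 CPM in libraries labelled G9a mutant, against 5.52, 6.81 and 7.81 CPM in G9a controls, with no overlap (log2 fold change 0.73, SE 0.19, adjusted p = 0.0506). With the replicate number as a block, which pairs the G9a libraries, the adjusted p was 0.0262 and fln was called higher. Per 100 counts of Mhc, fln had 0.264 to 0.325 counts in libraries labelled G9a mutant, against 0.115 to 0.182 in G9a controls, whereas Act88F had 0.729 to 0.772 counts, against 0.848 to 1.07. The 2 flight muscle genes thus lay on opposite sides of Mhc in this comparison. RefSeq's Release 6 table places fln over the antisense gene asRNA:CR45161, whose reads cannot be told apart from it without strand.

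The thick filament genes other than fln and Mf had log2 fold changes below 0 without a call. Mhc had 3435, 4176 and 3844 CPM in libraries labelled G9a mutant, against 4810, 4619 and 4287 CPM in G9a controls (log2 fold change -0.29, SE 0.10, adjusted p = 0.110). Mlc1, the lowest of the group, had 786, 741 and 558 CPM, against 1043, 1012 and 888 CPM (log2 fold change -0.53, SE 0.14, adjusted p = 0.0526). For Mlc2 the log2 fold change was -0.36 (adjusted p = 0.0515). In each of these 3 genes all libraries labelled G9a mutant lay below all controls.

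Thin filament regulators did not share that side, with 6 of 8 tested above 0 and none called. At an unadjusted p under 0.05, 1 was lower, as were 13.9% of all genes tested. TpnC25D had 271, 386 and 282 CPM in libraries labelled G9a mutant, just above the G9a controls at 264, 212 and 263 CPM (log2 fold change 0.31, SE 0.16, adjusted p = 0.261). TpnC41C was the lowest, at 13.9, 13.8 and 11.0 CPM inside the span of the controls at 8.50, 21.3 and 18.0 CPM (log2 fold change -0.34, SE 0.29, adjusted p = 0.506). Troponin T (up) had log2 fold change -0.22, Tm1 0.17, Tm2 0.015 and tmod 0.17. TpnC25D held 92.5% to 94.0% of troponin C counts in libraries labelled G9a mutant, against 87.8% to 93.8% in G9a controls.

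Of the Z-disc and calcium genes none was called in the G9a comparison. At an unadjusted p under 0.05, 3 genes of each group were lower, as were 13.9% of all genes tested. SERCA had 1997, 2698 and 2547 CPM in libraries labelled G9a mutant, against 3188, 3203 and 3181 CPM in G9a controls, with no overlap (log2 fold change -0.44, SE 0.12, adjusted p = 0.0515). Argk1, the least negative of its group, had 4107, 4099 and 4046 CPM, against 4603, 4594 and 4444 CPM (log2 fold change -0.19, SE 0.079, adjusted p = 0.185). Zasp67 had 13.1, 13.0 and 13.4 CPM, against 17.7, 16.3 and 15.0 CPM (log2 fold change -0.35, SE 0.11, adjusted p = 0.0830). The highest was Mlp60A, at 1187, 797 and 1148 CPM, against 727, 856 and 864 CPM, which overlap (log2 fold change 0.32, SE 0.16, adjusted p = 0.258). Mlp84B had log2 fold change -0.28 and Actn -0.34.

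Single libraries also decided the G9a calls. With both replicate 3 libraries left out, bt was called (adjusted p = 0.0239) and Act88F was not (log2 fold change -0.54, adjusted p = 0.102). Act88F was not called without G9a control 3 (adjusted p = 0.0612), nor without G9a mutant 1, where its fold was under 1.5. The call of bt was lost without G9a mutant 2 (adjusted p = 0.0968), G9a control 1 (0.101), G9a control 2 (0.0865) or G9a control 3 (0.0549). Without G9a mutant 2, Act79B was called lower (log2 fold change -1.02, adjusted p = 0.0486), and without G9a mutant 1, Mlc1 was called lower and fln higher.

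**Figure D3:**
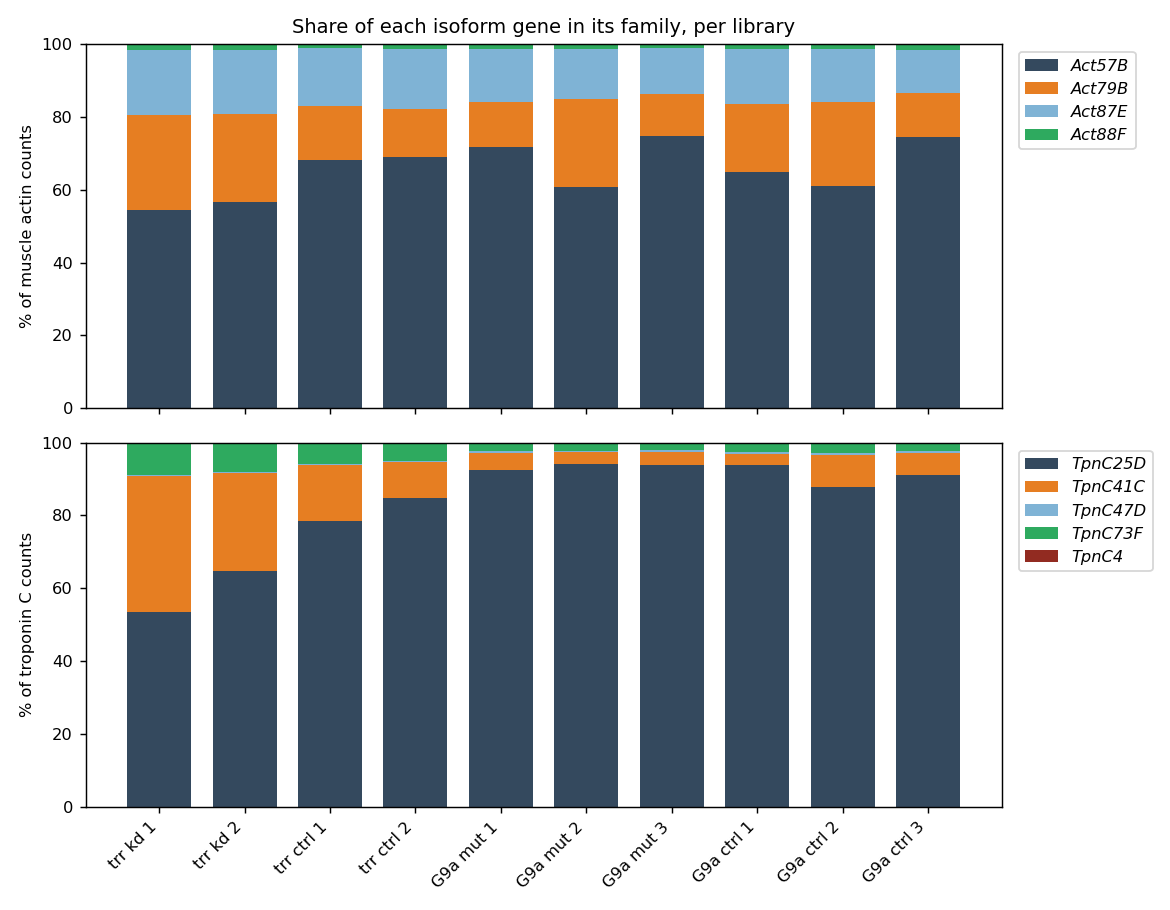
Share of each gene in the counts of the 4 muscle actins (top) and the 5 troponin C genes (bottom), in percent, for each of the 10 libraries. Act79B takes 24.1% and 26.0% of the actin counts in the libraries labelled trr knockdown, against 13.2% and 14.9% in trr controls, and TpnC25D takes 53.5% and 64.8% of the troponin C counts, against 78.5% and 84.9%.

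Most muscle genes thus lay on opposite sides in the 2 comparisons. The difference was tested in 1 fit over all 10 libraries, as the trr effect minus the G9a effect. Of 31 genes tested, 7 had a higher effect (Mlc2, Act87E, Act88F, up, Mlp84B, Actn and SERCA) and 1 a lower effect (TpnC25D) in the trr comparison at an adjusted p under 0.05 and a fold over 1.5, where the same rule called 9.26% of all 12871 genes tested, 5.49% higher and 3.77% lower. Zasp66 and Unc-89, both higher, passed by adjusted p alone, a rule that 9.86% of all genes met, with 5.80% on the higher side. The median difference was 0.45 on the log2 scale over the 31 genes and -0.056 over all genes tested. As a description, the log2 fold change of 19 of 30 genes was above 0 for trr and below 0 for G9a, against 25.3% of the 11132 genes tested in both. Another 4 went the reverse way, 5 were above 0 in both and 2 below 0 in both. With 24 of 30 above 0 for trr and 21 below 0 for G9a, a large share on these sides follows from those counts alone.

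Act88F had a log2 fold change of 0.60 for trr, which was not called, and of -0.62 for G9a, which was (difference 1.22, SE 0.21, adjusted p = 0.00551). SERCA differed by 0.99 (SE 0.17, adjusted p = 0.00601) and Mlp84B by 0.88 (SE 0.15, adjusted p = 0.00502). TpnC25D differed in the other direction, by -1.53 (SE 0.25, adjusted p = 0.00450). Act79B, at 1.62 (SE 0.47), had the highest difference of the 31 genes but also one of the widest spreads and did not pass (adjusted p = 0.0554). With replicate numbers as a block in both experiments it did (adjusted p = 0.00494), as did bt (0.0182). The trr replicate numbers did not pair the libraries (correlation -0.06), so these values rest partly on a pairing that was not seen. The lowest differences within their role groups were those of fln (-0.51, adjusted p = 0.262) among thick filament genes and Mlp60A (-0.32, adjusted p = 0.486) at the Z-disc.

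Leaving out libraries moved this count more than other settings did. The number of higher genes was 2 without trr knockdown 1, 4 without trr knockdown 2 and 4 without trr control 1, and 6 with both G9a replicate 3 libraries left out, where Mlc2 and up were lost and Act79B was gained. Act88F and Mlp84B (higher) and TpnC25D (lower) were called in each of the 10 fits that left out 1 library. The experiments also used different control lines and fly backgrounds, which cannot be told apart from the gene that was targeted.

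**Figure D4:**
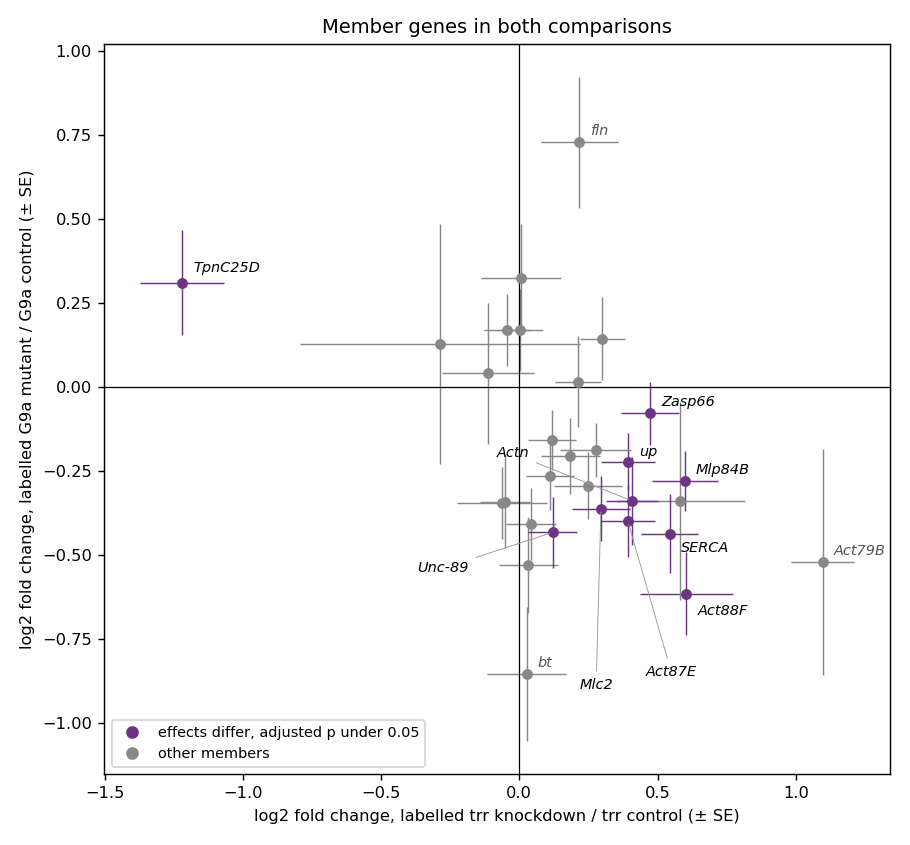
Log2 fold change of each muscle gene in the G9a comparison (vertical) against that in the trr comparison (horizontal), with SE bars, for the 30 genes tested in both. The 10 genes in purple differ between the comparisons at an adjusted p under 0.05; 19 genes lie to the lower right of the zero lines and TpnC25D lies alone at the far left.

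Control heads of the 2 experiments were themselves unlike. In 25 of 31 muscle genes the 3 G9a controls lay above both trr controls and in 3 below them (fln, TpnC4 and Mlp60A), where 30.0% and 25.6% of all 12871 genes did so, and 3 overlapped (TpnC41C, TpnC73F and tmod). The G9a control mean was 3.18 times the trr control mean for Mhc, 4.89 times for sls and 0.405 times for fln.

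The flight muscle and tubular isoforms were set beside the 26 general muscle genes that were tested. In the trr comparison the general genes had a median log2 fold change of 0.12, and Act88F and fln had 0.60 and 0.22. Act79B and TpnC41C, which were put on the tubular list, had 1.10 and 0.58. In the G9a comparison the general genes had a median of -0.24, Act88F and fln had -0.62 and 0.73, and Act79B and TpnC41C had -0.52 and -0.34. The flight muscle genes thus did not keep one side of the general genes in the G9a comparison, and no test was made of a difference between the fibre lists.

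Other genes of muscle, from lists of related functions, mostly passed no test. The call rule picked 1.03% of all genes tested in the trr comparison, so counts of 0 in lists this short are near that share. In the trr comparison 0 of 4 nonmuscle actin and myosin genes, 0 of 4 excitation and calcium handling genes, 0 of 13 attachment and dystrophin complex genes, 0 of 7 sarcomere assembly and chaperone genes, 0 of 7 muscle regulators and 0 of 7 muscle fuel genes were called. At an unadjusted p under 0.05, 3 attachment genes were lower and 1 higher, 3 assembly genes higher, 1 regulator higher and 1 fuel gene higher. By that rule 8.27% of all genes tested were higher and 11.0% lower. The attachment list spanned stck (PINCH, part of the integrin complex, log2 fold change -0.86) to parvin (0.42), and the assembly list spanned CAP (0.039) to CryAB (0.47), a small heat shock protein. In the G9a comparison none of these lists had a call either, where the rule called 7.56% of all genes tested. At an unadjusted p under 0.05, 4 genes were higher and 3 lower, against 11.6% and 13.9% of all genes tested. By adjusted p alone, which 1372 of all 12329 genes tested met in either direction, Ca-alpha1D (a calcium channel, log2 fold change 0.34) and Scgalpha (a sarcoglycan, 0.53) were higher. The alpha-integrin if (-0.39) and GlyP (glycogen phosphorylase, -0.56) were lower by that rule, as were 7.49% of all genes tested. In the test of the difference, if (0.62) and GlyP (0.85) had a higher and stck (-1.18) a lower effect in the trr comparison. That rule called 5.49% of all genes tested higher and 3.77% lower. Mef2, the main transcription factor of muscle genes, had log2 fold changes of 0.11 (trr) and -0.092 (G9a).

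Sums of markers of other cell types also differed between groups for some lists, and not always in the direction of the muscle genes. Fat body markers (5 of 5 found) summed to 5350 to 5548 CPM in libraries labelled trr knockdown, against 7284 to 9504 CPM in trr controls, and to 2286 to 3342 CPM in libraries labelled G9a mutant, against 3260 to 7633 CPM in G9a controls, which overlap. Of them Yp1 and Yp3, yolk proteins of females, were called lower in the trr comparison, and apolpp and Lsp2 in the G9a comparison. For trr, Yp2 was also below 0 (log2 fold change -0.33), whereas apolpp (0.10) and Lsp2 (0.098) were above 0. For G9a, all 5 were below 0. Photoreceptor markers summed to 75534 to 80204 CPM in libraries labelled G9a mutant, against 54006 to 61978 CPM in G9a controls, and to 81865 to 82414 CPM in libraries labelled trr knockdown, inside the trr controls at 79223 to 88779 CPM, and Arr1 was called higher in the G9a comparison. Midgut proteases summed to 2.27 and 2.62 CPM in libraries labelled trr knockdown, against 0.150 and 0.179 CPM in trr controls, and alphaTry was called higher there. The male-specific RNAs roX1 and roX2 summed to 1749 to 1904 CPM in libraries labelled trr knockdown, against 2206 to 2282 CPM in trr controls, and to 1105 to 1362 CPM in libraries labelled G9a mutant, against 673 to 905 CPM in G9a controls. Blood cell markers (4 of 4 found) summed to 266 to 285 CPM in libraries labelled trr knockdown, against 217.1 to 217.5 CPM in trr controls, and to 184 to 239 CPM in libraries labelled G9a mutant, against 210.2 to 242 CPM in G9a controls, which overlap. Of them Hml and NimC1 were called lower in the G9a comparison, whereas Pxn, the most abundant, had log2 fold change 0.17 (adjusted p = 0.371). Glial markers (5 of 5 found) summed to 753 to 827 CPM in libraries labelled trr knockdown, against 909 to 989 CPM in trr controls, and to 581 to 672 CPM in libraries labelled G9a mutant, against 767 to 825 CPM in G9a controls, without overlap in either comparison. All 5 had log2 fold changes below 0 in the G9a comparison, and alrm was called lower there. They were split in the trr comparison, where none was called. There nrv2 (-0.50), Eaat1 (-0.43) and alrm (-0.012) were below 0, and repo (0.31) and moody (0.21) above 0. Neuron markers summed to 4815 to 5189 CPM in libraries labelled G9a mutant, against 4264 to 4652 CPM in G9a controls, and to 4206 to 4248 CPM in libraries labelled trr knockdown, inside the trr controls at 4196 to 4376 CPM. Of these 5 genes edgeR called 0 in either comparison (1 lower for trr and 1 higher for G9a at an unadjusted p under 0.05). Over all genes tested 11.0% were lower for trr and 11.6% higher for G9a by that rule. The part of these shifts in the muscle gene results was not tested.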

How the data were processed

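RNA from heads was sequenced as 36 base reads. The study aligned them with BWA 0.6.1 to the dm3 genome with 1 mismatch allowed, kept uniquely aligned reads and ran HTSeq for counts per gene on an Ensembl BDGP5 annotation; the strand setting was not stated. The deposited values are raw counts per gene, without the 5 summary lines of each file. Those lines put 9.29% to 18.0% of a file's total outside genes, 1.58% to 2.55% as ambiguous and 7.86% to 20.4% as unaligned.

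Symbols were joined by FlyBase identifier to a RefSeq table of Release 6, which matched 95.7% of identifiers; it also gave which genes overlap, and none of its coordinates or sequences is given. CPM are counts scaled to 1e+06 gene counts. Each experiment was fitted alone with edgeR 4.0.16 (R 4.3.3), TMM normalization, genes with at least 10 summed counts, quasi-likelihood tests and Benjamini-Hochberg adjustment over all genes tested; a gene was called at an adjusted p under 0.05 and a fold change over 1.5. The difference of the effects was fitted over all 10 libraries. The scripts were tested on simulated data. Alternatives were RLE scaling, DESeq2 1.42.0, other filters, other call rules, a replicate block, 1 fit over all libraries, a covariate and leaving out libraries.

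Members and lists were chosen with earlier results of these data known. Values are given for called genes, fibre isoforms and the highest and lowest member of each role group, and other lists name called or extreme genes; Mhc, SERCA, Mef2 and others outside that rule were chosen after their values were seen. Deviations of same-numbered G9a libraries from their group means correlated at 0.25, 0.18 and 0.44. Those of unlike number correlated at -0.35 to 0.22, and G9a mutant 2 was closer to G9a control 1 (0.22) than to G9a control 2 (0.18). The main fits used no pairing, and the number entered as a block only among the alternatives. Replicates differed by more than counting noise, and none was merged. The chi-square per degree of freedom was 3.64 between the 2 libraries labelled trr knockdown and 51.0 between the 2 trr controls. Within the G9a groups it was 21.8 to 41.4. The reason for the low value was not tested. The trr binding data were not used here. Limits set from a count of 0 cover counting error only, since PCR copies are not independent molecules.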

Additional observations from a re-analysis of the deposited data

Results flagged for a closer look

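The effect differed between the trr and G9a comparisons for 10 muscle genes by the test of the difference itself (edgeR quasi-likelihood, adjusted p under 0.05), each given as the trr effect minus the G9a effect on the log2 scale. TpnC25D differed by -1.53 (adjusted p = 0.00450). The others differed upward, Act88F by 1.22 (0.00551), SERCA by 0.99 (0.00601), Mlp84B by 0.88 (0.00502), Act87E by 0.79 (0.0135), Actn by 0.75 (0.0352), Mlc2 by 0.66 (0.0225), up by 0.62 (0.0155), Unc-89 by 0.56 (0.0462) and Zasp66 by 0.56 (0.0359), where the second value is the adjusted p. All genes tested gave 9.86% of such differences. The experiments used different control lines, and the targeted gene and the fly background cannot be told apart.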

How the results depend on the processing

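With 2 libraries a group, the count of the trr comparison moved with the fit. Higher muscle genes there, 1 as reported, numbered 2 under DESeq2 (Mlp84B added), 0 without a filter and 0 with glmTreat against a 1.5-fold change, and lower genes 0 under the last pair; without a filter the adjusted p was 0.0521 for Act79B and 0.0734 for TpnC25D. Leaving out 1 library gave 0 to 4 higher and 0 to 1 lower. The trr replicate numbers did not pair the libraries (correlation -0.06), and with them as a replicate block 3 were higher (Act79B, TpnC41C, Mlp84B). With all 10 libraries in 1 fit TpnC25D and Mlp84B were called and Act79B was not (adjusted p = 0.176). Over all genes, 118 calls became 496 (DESeq2), 29 (no filter), 35 (glmTreat), 819 (block) and 246 (1 fit), and 0 to 2009 when 1 library was left out.

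In the G9a comparison fln made 1 higher gene under RLE, DESeq2, filterByExpr, the replicate block and the fit over 10 libraries; the block changed no other G9a call. Lower genes numbered 4 by adjusted p alone, 0 with glmTreat (313 calls over all genes, against 932) and 1 with both replicate 3 libraries left out, which was chosen after seeing the data, and 0 to 2 when 1 library was left out, with 0 to 1 higher. The share of reads outside genes as a covariate changed no call. For the difference, RLE gave 10 higher genes, the block 9, and leaving out 1 library 2 to 10; 1 gene was lower in each fit. Medians stayed between 0.16 and 0.27 (trr), -0.28 and -0.23 (G9a) and 0.36 and 0.49 (difference). The cause of each change was not tested.

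Signs changed only for uncalled genes when 1 library was left out, 17 times in all. Their log2 fold changes then ran, in the trr comparison, from -0.079 to 0.15 (Mlc1), -0.11 to 0.0012 (Act57B), -0.012 to 0.021 (Tm1), -0.16 to 0.23 (bt), -0.027 to 0.11 (sls) and -0.18 to 0.21 (Mlp60A). In the G9a comparison they ran from -0.022 to 0.25 (TpnC47D), -0.19 to 0.18 (TpnC73F) and -0.14 to 0.098 (Tm2), and in the difference from -0.29 to 0.078 (TpnC73F) and -0.64 to 0.18 (TpnC4).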
